A study of Mus musculus with 2 samples.

Results

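The genes described are the WNT signalling genes that a 2-colour microarray of the embryonic mouse ureter measured: the Wnt ligands, their R-spondin agonists, the frizzled and LRP/LGR receptors, the secreted SFRP, DKK, WIF1 and NOTUM inhibitors, and a set of feedback targets and nuclear factors. Members were chosen by gene name on the array, not by any measured value. The rule took every probe whose name is Wnt, Fzd, Sfrp, Dkk or Rspo followed by a number, together with Axin2, Lef1, Tcf7, Sp5, Nkd1, Nkd2, Notum, Apcdd1, Znrf3, Rnf43, Wif1, Lgr4, Lgr5, Lrp5 and Lrp6. It found 67 probes for 56 genes, out of 39429 probes and 31693 gene names. Of the 56 genes, 48 were bright enough to be tested.

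WNT proteins are secreted lipid-modified ligands that bind a frizzled receptor with an LRP5 or LRP6 co-receptor. In the canonical branch this stabilises β-catenin, which enters the nucleus and acts with the TCF/LEF factors on targets such as Axin2, whose product in turn dampens the pathway. R-spondins bound to LGR receptors raise the number of frizzled molecules at the cell surface by removing the ubiquitin ligases ZNRF3 and RNF43, while SFRP, WIF1, DKK and NOTUM proteins act outside the cell to limit signalling. In the developing ureter, Wnt7b and Wnt9b are made by the epithelium and signal to the surrounding mesenchyme, which later forms the smooth muscle coat.

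Total RNA came from ureters dissected mechanically from NMRI mouse embryos at E14.5, and it was amplified once before labelling. The mutant, called Bmp4cKO, is Tbx18(cre/+);Bmp4(fl/fl): Cre is made from the Tbx18 locus, which is active in the ureteric mesenchyme, and both Bmp4 alleles are floxed. The control is Tbx18(+/+);Bmp4(fl/?), so it also carries a floxed Bmp4 allele but no Cre, and its second Bmp4 allele is not given. The mutant therefore differs from the control in carrying cre at 1 Tbx18 copy as well as in Bmp4. There were 2 arrays, each with 1 mutant and 1 control RNA. On replicate 1, with both RNAs labelled female, the control was red (AlexaFluor647) and the mutant green (AlexaFluor555), and on replicate 2, with both labelled male, the dyes were swapped. No source used here says whether an RNA came from 1 embryo or several, so the spread between the 2 arrays may be partly technical. Replicate, sex label and dye orientation cannot be told apart.

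Levels are log2 normalized intensities of 1 probe in 1 channel, and they are compared only between channels of the same probe. A ratio is the log2 level of the RNA that the records label as Bmp4cKO minus that of the RNA they label as control, called here the cKO-labelled and the control-labelled RNA. The targeted gene goes against these labels. Bmp4 read 16.21 and 15.91 in the cKO-labelled channels of replicates 1 and 2 and 13.17 and 12.20 in the control-labelled channels, which is 3.38 ± 0.48 (SD, n = 2) higher, or 10.4-fold (limma adjusted p = 0.016). That probe lies on chr14:47003391-47003450 (mm9, minus strand), and no source used here says whether the floxed segment covers it. Tbx18, of which the mutant carries 1 intact copy, was 0.97 ± 0.17 higher in the cKO-labelled RNA (adjusted p = 0.040). The authors' deposited table runs the opposite way, with Bmp4 listed at -8.16 and -13.9 on its signed fold scale. The sex labels were met in part: in replicate 2 the Y-linked Ddx3y and Eif2s3y were well above background only in the control-labelled RNA, and Xist was bright in the cKO-labelled RNA, although both are labelled male. Each ratio of replicate 2 therefore also compares RNA without and with Y-linked signal. On that array this difference cannot be told apart from the genotype label. Throughout, "higher" is the side on which Bmp4 itself was high, and "lower" is the opposite side. Each direction would turn if the dye labels were exchanged.

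Each of 21978 genes was tested with limma on the 2 ratios, and a gene was called at a Benjamini-Hochberg adjusted p under 0.05 over all of them. Among the 48 members tested, 2 were called higher, Fzd9 and Sfrp2, where the share of all genes called higher was 0.887%. There were 4 called lower, Wnt9b, Rspo3, Lgr5 and Apcdd1, where the share of all genes was 1.02%. The called members were a ligand, an agonist, a pair of receptors, a secreted inhibitor and a feedback inhibitor. These 6 calls depend on how the arrays were normalized. They also passed with the scanner's own dye-normalized signals, but with median centring or no normalization 0 of the 48 passed limma's adjusted threshold, although the signs of the 6 ratios were kept. With median centring their adjusted p ran from 0.30 to 0.42, and 4 higher and 13 lower members had an unadjusted p under 0.05. On both arrays 27 of 48 members were lower (30.6% of all genes were) and 10 were higher (28.2% of all genes), while 11 differed in sign between arrays. The median ratio of the members was -0.10, against -0.0092 over all genes tested. Between the 2 arrays, Pearson's r was 0.80 over the 48 members and 0.48 over all genes, with Spearman's rho at 0.76 and 0.31. Those correlations are across genes, which are not independent, and both RNAs of an array share its slide, so no p is given.

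**Figure D1:**
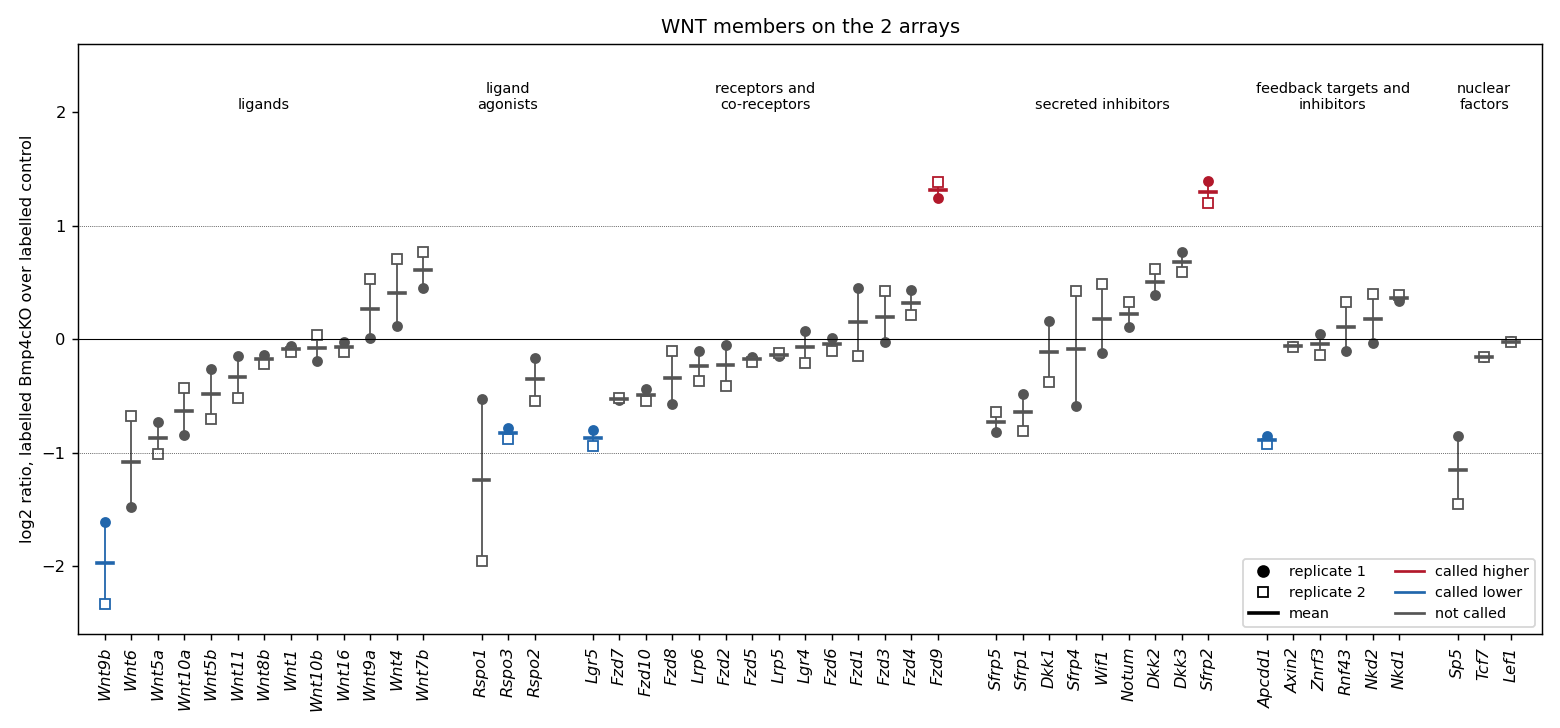
The log2 ratio of cKO-labelled over control-labelled RNA (vertical axis) is plotted for the 48 tested members, grouped by role and ordered by mean, with a filled circle for replicate 1, an open square for replicate 2 and a bar at the mean. Wnt9b has the lowest mean at -1.97, and Fzd9 and Sfrp2 have the highest at 1.31 and 1.29, all 3 beyond 2-fold (dotted lines) on both arrays.

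Sizes were also counted without a test. At least 2-fold on both arrays, Fzd9 and Sfrp2 were higher (0.578% of all genes were) and Wnt9b was lower (0.619% of all genes). At 1.5-fold on both arrays Dkk3 joined them, giving 3 higher members (1.75% of all genes), and 8 were lower (2.03% of all genes): Wnt9b, Wnt6, Wnt5a, Rspo3, Lgr5, Apcdd1, Sp5 and Sfrp5. The 2 channels of each label can also be compared as levels. Both cKO-labelled channels lay above both control-labelled channels for 9 members, where 18.8% of all genes did so, and below them for 24, where 19.6% did so. In RNA from whole ureters, fewer cells of a type and less RNA per cell cannot be told apart.

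**Figure D2:**
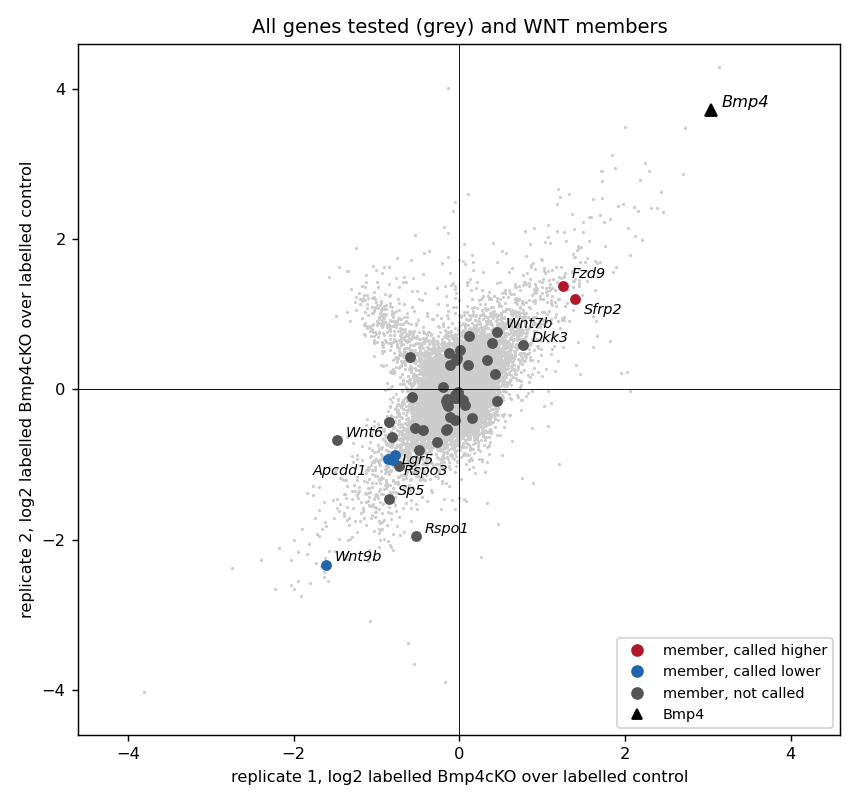
Each point is a gene, with its log2 ratio on replicate 1 on the horizontal axis and on replicate 2 on the vertical axis; grey points are all 21978 genes tested and larger points the 48 members. The called members other than Wnt9b lie near the diagonal, and closeness of the arrays also enters the test that called them. Wnt9b sits at -1.61 on replicate 1 and -2.33 on replicate 2, and the uncalled Rspo1 at -0.53 and -1.96.

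The values rest on single 60-base probes, so the 3' end of the probe is given for 5 of the 6 called members, all but Apcdd1, to show what was hybridised. Each is the last 30 bases, 5' to 3' in the sense of the transcript, as the array files give it on mm9. Capitals mark AATAAA, the hexamer that is part of many polyadenylation signals, which occurs in 12.6% of all 60-base probes and in 9 of the 67 member probes (13.4%). Whether a probe lies in a coding exon or a UTR was not looked up, since no mm9 annotation was used here.
Wnt9b, chr11:103588882-103588911, minus strand: cacccatgaacgtccatgcttcctgtctga
Rspo3, chr10:29172930-29172959, minus strand: taggagagaaagccaccacAATAAAtatat
Lgr5, chr10:114887403-114887432, minus strand: ccagaatttgcttttctactgggctcaaaa
Fzd9, chr5:135724815-135724844, minus strand: ctctggaagctgtgactggAATAAAccctc
Sfrp2, chr3:83577894-83577923, plus strand: ctcgttttatgccctcatgagctctgacca
Of these 5, the probe ends of Rspo3 and Fzd9 carry the hexamer and the other 3 do not.

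Among the ligands, Wnt9b had the largest ratio and was lower in the cKO-labelled RNA, the side opposite to Bmp4. Wnt7b, the other epithelial ligand of the ureter, lay on the side of Bmp4. Wnt9b read 10.05 and 9.89 in the cKO-labelled channels of replicates 1 and 2 and 11.67 and 12.23 in the control-labelled channels. The 2 groups of channels did not overlap. The ratio was -1.97 ± 0.51 (SD, n = 2; 95% interval from -2.48 to -1.47), a 3.93-fold lower level (limma adjusted p = 0.026). Wnt7b read 10.94 and 11.42 in the cKO-labelled channels and 10.49 and 10.65 in the control-labelled channels. Its channels did not overlap either, but its ratio of 0.61 ± 0.22 (interval from 0.26 to 0.96) did not pass over all genes (adjusted p = 0.12). Whether the ratios of these ligands differ from each other was not tested.

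Wnt9b is known from the ureteric bud and collecting ducts of the kidney as well as from the ureter, so the marker lists for those cells are given beside it. Of 8 tested genes of the ureteric bud tip and collecting duct, 1 was called lower, Ret, the receptor of GDNF, at -1.20 ± 0.05 (adjusted p = 0.025). In that list 0 were called higher, while 5 were lower and 1 was higher on both arrays. The list's median was -0.17 and its summed linear intensity was 27857 and 27728 in the cKO-labelled channels and 28017 and 29925 in the control-labelled channels, with Slco4c1 not well above background. Of 16 tested genes of the urothelium, the lining epithelium of the ureter, 8 were called higher and 0 lower, with a median of 1.03. On both arrays 13 of the 16 were higher and 1 was lower. Over all genes 0.887% were called higher and 1.02% lower, and 28.2% were higher and 30.6% lower on both arrays. The summed intensity of the urothelial list was 264453 and 257689 in the cKO-labelled channels against 129287 and 126930 in the control-labelled channels. Shh, another epithelial signal of the ureter, read -0.71 and was not called. The part of these cell types in the Wnt9b and Wnt7b values was not tested.

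Of the 13 ligands tested, 9 were lower on both arrays (30.6% of all genes were), 3 were higher on both (28.2% of all genes) and 1 differed in sign. Their median was -0.18. Wnt5a, a ligand of mesenchyme that acts largely outside the β-catenin branch, read 10.06 and 9.79 in the cKO-labelled channels and 10.79 and 10.80 in the control-labelled channels. Its channels did not overlap, and its ratio of -0.87 ± 0.20 (interval from -1.21 to -0.53) missed the threshold narrowly (adjusted p = 0.055). Wnt6 read 8.99 and 9.87 in the cKO-labelled channels and 10.47 and 10.55 in the control-labelled channels. Its control-labelled levels were close together and its cKO-labelled levels were not, so that the ratio was -1.08 ± 0.57 (adjusted p = 0.094). Wnt10a at -0.64 ± 0.29, Wnt5b, a close relative of Wnt5a, at -0.48 ± 0.31 and Wnt11 at -0.34 ± 0.27 had adjusted p from 0.13 to 0.39. Wnt4, which drives nephron formation in the kidney, had a ratio of 0.11 on replicate 1 and 0.71 on replicate 2 (mean 0.41 ± 0.42, adjusted p = 0.40). Wnt16 read -0.07 on its brighter probe and 0.23 on its other, so the sign of Wnt16 depends on the probe. The other 4 tested ligands, Wnt1, Wnt8b, Wnt9a and Wnt10b, had mean ratios from -0.18 to 0.27, and Wnt8b and Wnt10b were above background in only 1 of the 2 cKO-labelled channels.

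The remaining 6 ligands did not give a usable level. Wnt2b, Wnt3a, Wnt7a and Wnt8a were well above background in 0 of the 4 channels, as were the agonist Rspo4 and the inhibitor Dkk4. Wnt2 and Wnt3 were above it in 1 channel, the control-labelled channel of replicate 2. No ratio is given for these 8 genes.

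**Figure D3:**
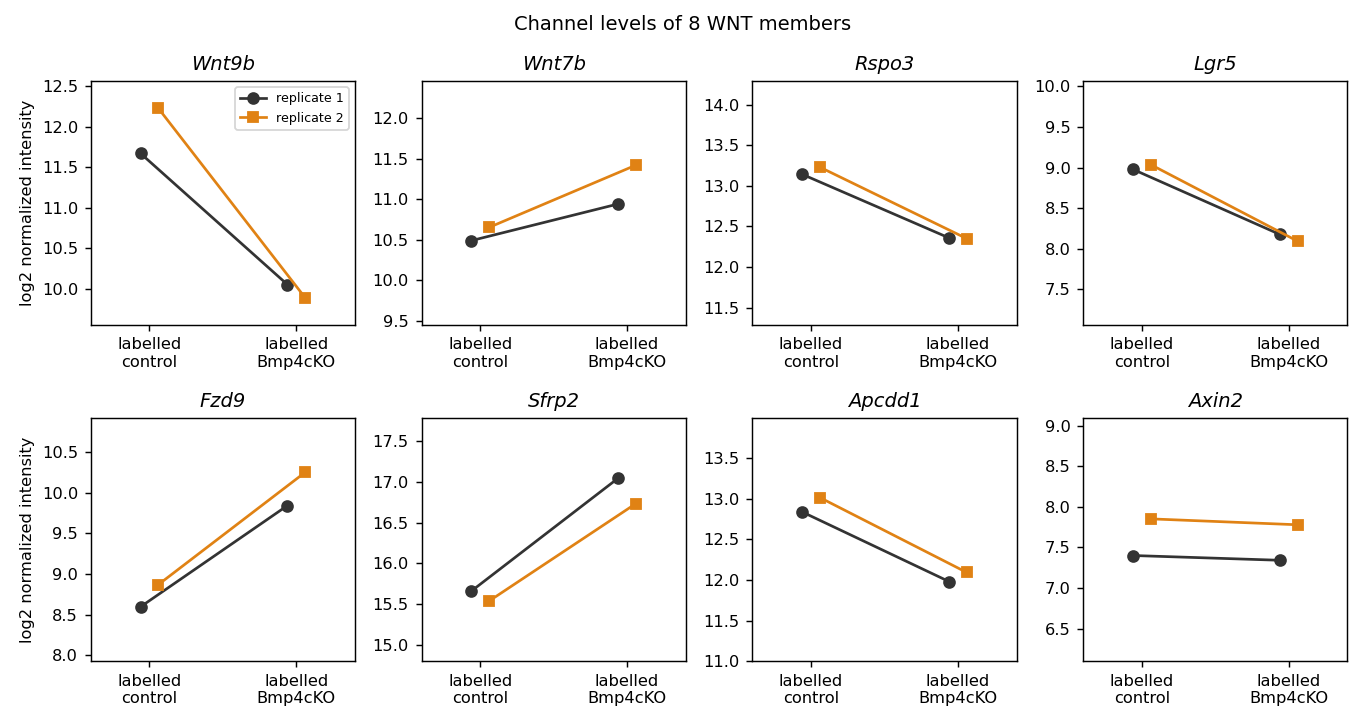
Normalized log2 intensity (vertical axis, all panels of equal span) is plotted for 8 members in the control-labelled and the cKO-labelled channel of each array, with lines joining the channels of 1 array. In Wnt9b, Rspo3, Lgr5 and Apcdd1 both lines go down, in Fzd9, Sfrp2 and Wnt7b (the last not called) both go up, and in Axin2 they are nearly flat at -0.06 and -0.07.

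The R-spondin agonists had 3 tested members, of which 1, Rspo3, was called lower. The other 2 had negative ratios on both arrays without passing the test. Rspo3, which amplifies WNT signals by way of LGR receptors, read 12.36 and 12.35 in the cKO-labelled channels and 13.14 and 13.23 in the control-labelled channels. The channels of 1 label lay close together and well apart from those of the other. Its ratio was -0.83 ± 0.07 (interval from -1.13 to -0.53), a 1.78-fold lower level (limma adjusted p = 0.046). Rspo1 had the larger mean but differed between arrays. It read 8.82 in the cKO-labelled and 9.34 in the control-labelled channel of replicate 1, while on replicate 2 the cKO-labelled level was 8.05 and the ratio -1.96, so that its mean ratio of -1.24 ± 1.01 was not called (adjusted p = 0.19). Rspo1 is known as an ovary-determining gene. Its highest level was in the control-labelled RNA of replicate 2, the only RNA with Y-linked signal, and the part of sex in its values was not tested. Tested markers of Wolffian duct and gonad gave 0 called of 4, with a median of -0.31, and their part in Rspo1 was not tested. Rspo2 read -0.17 and -0.54 (mean -0.35 ± 0.27, adjusted p = 0.36).

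Among the receptors 1 frizzled was called higher and 1 R-spondin receptor was called lower. Fzd9, a receptor of the 10-member frizzled family, read 9.84 and 10.25 in the cKO-labelled channels and 8.60 and 8.87 in the control-labelled channels. The channels did not overlap, and the ratio of 1.31 ± 0.10 (interval from 1.01 to 1.62) was 2.49-fold higher (limma adjusted p = 0.023). Lgr5, an R-spondin receptor that marks stem cells of several epithelia and is itself a WNT target, read 8.18 and 8.09 in the cKO-labelled channels and 8.98 and 9.04 in the control-labelled channels. That is -0.87 ± 0.10 (interval from -1.18 to -0.57), or 1.83-fold lower (adjusted p = 0.043). Lgr5 is a receptor for the product of Rspo3, and their ratios were -0.87 and -0.83. Lgr4, the more broadly expressed paralogue of Lgr5, read 0.07 and -0.21.

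The other 9 frizzled genes were not called. On its brighter probe Fzd7 had closely matching ratios of -0.54 and -0.52 (mean -0.53 ± 0.01, interval from -0.83 to -0.23, adjusted p = 0.12). The dimmer Fzd7 probe, which also passed the filter, read -0.61 and -0.18, so the close match was not seen there. Fzd10 read -0.44 and -0.54 (adjusted p = 0.14). Fzd8 at -0.34 ± 0.33 and Fzd4, also the receptor of norrin in blood vessels, at 0.32 ± 0.16 followed. Fzd1, Fzd2, Fzd3, Fzd5 and Fzd6 lay between -0.23 and 0.20, and the co-receptors Lrp5 and Lrp6 read -0.14 and -0.24. Within the frizzled family 5 of 10 were lower on both arrays (30.6% of all genes were) and 2 higher (28.2% of all genes). The median was -0.11, and Fzd9 and Fzd4 were the 2 higher ones.

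Lgr5 and Rspo3 also occur in kidney cells, whose marker lists had called members in the same direction. Of 11 tested nephron progenitor and nephron genes, 3 were called lower: Gdnf, the ligand of Ret, at -2.15 ± 0.17, Wt1 at -1.34 ± 0.22 and Lhx1 at -1.06 ± 0.17. In the same list 1 gene was called higher, Crym at 1.22 ± 0.22, and the median was -0.14. On both arrays 6 genes of that list were lower and 3 higher. Of 5 kidney stroma genes, Smoc2, at -1.43 ± 0.40, and Alx1, at -1.06 and -1.55 on the 2 arrays, were called lower, and the median was -0.54. On both arrays 4 of the 5 were lower and 0 higher. The summed intensity of the nephron list ran from 88987 to 105905 in the cKO-labelled channels and from 98996 to 111781 in the control-labelled channels, so these overlapped. That of the stroma list ran from 135003 to 147389 and from 168593 to 207909. Neurons and Schwann cells had 3 of 6 markers called lower and 6 lower on both arrays. Endothelium and leukocytes had 0 called of 7 and 4, with 6 endothelial markers higher and 2 leukocyte markers lower on both arrays. The shares of all genes were 0.887% called higher and 1.02% called lower, with 28.2% higher and 30.6% lower on both arrays. The part of any of these cell types in the member values was not tested.

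Secreted inhibitors did not go one way. Sfrp2, which binds WNT proteins and is abundant in embryonic mesenchyme, read 17.05 and 16.73 in the cKO-labelled channels and 15.66 and 15.54 in the control-labelled channels. The 2 groups of channels did not overlap, and the ratio of 1.29 ± 0.13 (interval from 0.98 to 1.61) made Sfrp2 2.45-fold higher (limma adjusted p = 0.023). Its relatives Sfrp5 and Sfrp1 had ratios of the other sign. Sfrp5 read 9.83 and 10.23 in the cKO-labelled and 10.65 and 10.87 in the control-labelled channels (ratio -0.73 ± 0.13, adjusted p = 0.065). Sfrp1 read 14.86 and 14.67 against 15.35 and 15.48 (ratio -0.65 ± 0.23, adjusted p = 0.11). Sfrp4 differed in sign between the arrays, at -0.59 and 0.43. The ureteric mesenchyme list covers the cells in which Tbx18 is active. Of its 8 tested genes 2 were called higher, Gata6 at 1.09 ± 0.20 and Tbx18, with a median of 0.23. On both arrays 4 of the 8 were higher and 1 was lower. The genotypes differ in intact Tbx18 copies by design, so the Tbx18 ratio cannot stand for the amount of these cells. Of 7 smooth muscle genes 3 were called higher and 7 were higher on both arrays, with a median of 1.29. For both lists the shares of all genes were 0.887% called higher, and 28.2% higher and 30.6% lower on both arrays. The part of mesenchyme or smooth muscle cells in the Sfrp2 value was not tested.

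The Dickkopf genes, whose products block or modulate LRP co-receptors, gave 0 calls among 3 tested. Dkk3, a divergent member of the family, read 14.55 and 14.68 in the cKO-labelled channels and 13.78 and 14.09 in the control-labelled channels, a ratio of 0.68 ± 0.13 (interval from 0.37 to 0.99, adjusted p = 0.074). Dkk2 had a ratio of 0.51 ± 0.16 (interval from 0.18 to 0.83, adjusted p = 0.15), and its channels, like those of Dkk3, did not overlap. Dkk1 differed in sign, at 0.16 and -0.38. Notum, which inactivates WNT proteins by removing their lipid, read 0.11 and 0.33, and Wif1, which binds WNT proteins directly, read -0.12 and 0.48 (mean 0.18 ± 0.43). The 9 tested secreted inhibitors together had a median of 0.18. On both arrays 4 were higher (28.2% of all genes were) and 2 lower (30.6% of all genes), and 3 differed in sign.

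Of the 6 feedback targets and inhibitors, Apcdd1 was called lower and the other 5 did not pass the test. Apcdd1, a membrane-bound WNT inhibitor that is also induced by WNT signalling, read 11.98 and 12.09 in the cKO-labelled channels and 12.84 and 13.01 in the control-labelled channels. Its 2 ratios of -0.86 and -0.92 were close, giving -0.89 ± 0.05 (interval from -1.19 to -0.59), a 1.85-fold lower level (limma adjusted p = 0.040). Axin2, the most widely used readout of β-catenin signalling, read 7.34 and 7.78 in the cKO-labelled channels and 7.40 and 7.85 in the control-labelled channels. The ratio was -0.07 ± 0.01 with an interval from -0.36 to 0.23 (adjusted p = 0.89). This probe was dim. Its scanner-processed signals were 39.2 and 62.3 in the cKO-labelled channels and 38.9 and 69.8 in the control-labelled channels. The background correction used an offset of 50, which makes the ratios of such dim probes smaller. The interval therefore leaves room for a change of either sign and does not bound its size. With the scanner's processed signals the ratio was -0.08. The other Axin2 probe, dimmer still, read -0.21. Nkd1, an intracellular inhibitor that binds Dishevelled, had ratios of 0.33 and 0.39 (adjusted p = 0.26) and channels that only just did not overlap. The dimmer Nkd1 probe, which also passed the filter, read 0.02 and 0.35, and its channels overlapped. Rnf43 at 0.11 ± 0.31 and Znrf3 at -0.05 ± 0.13, the ubiquitin ligases that clear frizzled receptors, differed in sign between the arrays.

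Nkd2, the paralogue of Nkd1, gave different answers on its 2 probes. The brighter probe read 11.98 and 12.27 in the cKO-labelled channels and 12.02 and 11.87 in the control-labelled channels, which is -0.04 and 0.39 as ratios. The dimmer probe read 9.63 and 9.79 in the cKO-labelled channels and 10.67 and 10.59 in the control-labelled channels, which is -1.04 and -0.80. On each array the dimmer probe's ratio was lower, the difference being -1.003 on replicate 1 and -1.194 on replicate 2. Their 3' ends are printed because the gene's ratio depends on which probe is read. The probe starts lie 805 bases apart on the minus strand of chromosome 13 (mm9), and of the 2 the dimmer carries AATAAA (capitals) in its last 30 bases.
Nkd2, brighter probe, chr13:73956776-73956805: ataaaacaccaatgaacataagcttttttc
Nkd2, dimmer probe, chr13:73957581-73957610: cttggcatAATAAAgaattgtgcattctgt
Since the gene lies on the minus strand, the brighter probe is the one nearer the transcript's 3' end. There were 9 members with 2 passing probes, and in 7 of these both probes had the same sign of mean ratio, the exceptions being Nkd2 and Wnt16.

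**Figure D4:**
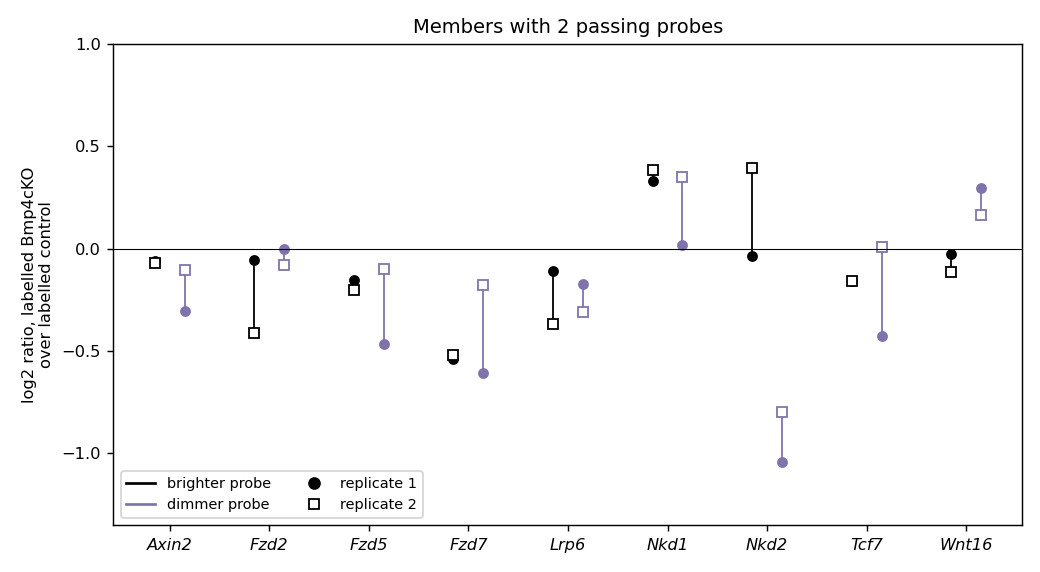
The log2 ratio of cKO-labelled over control-labelled RNA (vertical axis) is plotted for both probes of the 9 members with 2 passing probes, black for the brighter and violet for the dimmer probe, with a circle for replicate 1 and a square for replicate 2. The probes of Nkd2 lie apart on both arrays, at -0.04 and 0.39 against -1.04 and -0.80, while those of Lrp6 have means of -0.24 and -0.24.

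Of the 3 nuclear factors, Sp5 had the largest ratio and 0 were called. Sp5, a zinc-finger factor that many tissues switch on in response to WNT, read 8.62 and 8.71 in the cKO-labelled channels and 9.47 and 10.17 in the control-labelled channels. The channels did not overlap, and the ratio of -1.15 ± 0.43 (interval from -1.61 to -0.70) missed the threshold narrowly (adjusted p = 0.056). Tcf7 read -0.16 on both arrays, and Lef1 -0.02 and -0.03. Their intervals ran from -0.45 to 0.14 and from -0.32 to 0.27.

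Sp5 and Axin2 are known targets of TCF/LEF factors, so RefSeq promoter windows were searched for the words that these factors bind. Each word was CTTTG followed by 2 bases that are A or T, on either strand in the 250 bases before each annotated start (GRCm38.p6). Windows matched 36 of the 56 members, with 44 windows in all. At least 1 word was found in 6 of the 44 (13.6%), and in 14.8% of 32851 windows of all genes. At least 2 words were found in 4.55% of member windows and in 1.43% of all windows. Those member windows belong to Sp5 and Dkk1, whose ratios were -1.15 and -0.11, and they are printed with the words in capitals.
Sp5, chr2:70474673-70474922, plus strand: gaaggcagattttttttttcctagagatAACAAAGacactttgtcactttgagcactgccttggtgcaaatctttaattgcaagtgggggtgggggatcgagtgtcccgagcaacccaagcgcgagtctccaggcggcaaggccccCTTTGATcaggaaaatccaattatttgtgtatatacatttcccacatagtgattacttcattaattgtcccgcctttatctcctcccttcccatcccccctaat
Dkk1, chr19:30549497-30549746, minus strand: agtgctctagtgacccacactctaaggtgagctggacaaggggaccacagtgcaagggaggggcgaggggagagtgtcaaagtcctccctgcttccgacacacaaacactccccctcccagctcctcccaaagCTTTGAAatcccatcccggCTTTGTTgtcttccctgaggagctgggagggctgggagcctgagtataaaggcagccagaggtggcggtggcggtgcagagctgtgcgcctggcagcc
In the Sp5 window the first word is on the opposite strand and so appears as its reverse complement. A match is a run of letters, not a measured binding site, and the windows of Wnt9b, Sfrp2, Fzd9 and Axin2 held 0 matches. The other called members, Rspo3, Lgr5 and Apcdd1, had no window and were not searched.

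A second list held 69 further WNT pathway genes, outside the naming rule of the members, and 64 of them were tested. Of these 1 was called higher and 3 lower, where the shares of all genes were 0.887% and 1.02%. Tpbg, which encodes a membrane glycoprotein that holds LRP6 inactive, read 14.41 and 13.97 in the cKO-labelled channels and 12.80 and 12.99 in the control-labelled channels, a ratio of 1.29 ± 0.45 (limma adjusted p = 0.046). Fgf9, a growth factor reported to respond to WNT signalling, was lower by 1.31 ± 0.27 on the log2 scale (adjusted p = 0.030). Tnfrsf19, a WNT-responsive receptor of the tumour necrosis factor family, was lower by 1.22 ± 0.29 (adjusted p = 0.036). Celsr1, a cadherin of the planar polarity branch, was lower by 0.98 ± 0.13 (adjusted p = 0.037).

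Of the 64 genes 31 were lower on both arrays (30.6% of all genes were), 11 were higher (28.2% of all genes) and 22 differed in sign. Their median was -0.11. Of the 9 tested planar polarity genes, which orient cells within a sheet, 8 were lower on both arrays and 1, Celsr1, was called. Of the 16 cytoplasmic genes, among them those of the β-catenin destruction complex, 12 were lower on both arrays and 0 were called, at an unadjusted p under 0.05 in 3. The 10 tested nuclear partners and repressors had a median of -0.05 and the 4 tested other receptors one of -0.17, each with 0 called. Lgr6, Musk, Bambi, Cer1 and Prickle2 did not pass the filter. For the BMP pathway itself, 4 of 9 response genes were called higher, Id4, Msx2, Smad6 and Smad9 (0.887% of all genes were). On both arrays 9 of 9 were higher (28.2% of all genes), the side of Bmp4.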

How the data were processed

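RNA of E14.5 ureters was measured on 2 two-colour arrays. The authors scanned them and quantified spots with Agilent Feature Extraction 10.7.3.1, per the submitters' processing notes. Per the file headers, spot and local background signals were deposited as linear intensities. The deposited log ratio is log10 of red over green processed signal, per the file headers. The authors' value table holds a score, which set beside the scanner's ratios is a fold with a sign: sizes differed by at most 0.01 log2 units for 99.6% and 99.5% of 26302 probes, and the sign is that of red over green for replicate 1 and of green over red for replicate 2. No source used here says how that table was scaled or centred. The median of each column was 1.

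Here background was corrected with normexp (offset 50) and ratios were normalized by loess within each array with zero weight on control spots (limma 3.58.1, R 4.3.3). Outlier-marked spots (231 and 235) were left out, and spots of a probe averaged. A probe was kept if well above background in both cKO-labelled or both control-labelled channels, and the brightest kept probe stood for its gene. Ratios, turned by the dye labels, were fitted with lmFit and eBayes (1 residual and 4.03 prior degrees of freedom, so the shared variance carries most of each test) and adjusted by Benjamini-Hochberg over 21978 genes. Intervals are 95% limits of that fit. For the channel levels, mean log2 intensities were also quantile-normalized between the arrays, and each ratio was split evenly around that mean. The fit was tested on simulated data with changes larger than those of the called members: it recovered nearly all of them, but the share of false calls was on average somewhat above the nominal threshold, so calls near the threshold are less secure than their adjusted p. Gene names came from RefSeq (GRCm38.p6) for 31001 probes. Between 69.3% and 74.6% of spots were well above background per channel, no probe spot was saturated, and the number of arrays limits the precision.

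Members with values were every called one, those past 1.5-fold on both arrays, up to 4 more per role with the largest mean, Wnt7b, Wnt9b, Sfrp2, Axin2 and those whose probes differ in sign; the other tested members named were added after their values were seen. Members and lists were chosen with earlier results of these data known. Alternatives covered the background correction, normalization, filter, probe rule, prior, separate channels with and without a replicate block, and leaving out each array.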

Additional observations from a re-analysis of the deposited data

Results flagged for a closer look

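In 11 uncalled members the 2 arrays went opposite ways. Replicate 2 minus replicate 1, on the log2 ratio scale, was 1.02 for Sfrp4, 0.61 for Wif1, 0.45 for Fzd3, 0.43 for Nkd2, 0.43 for Rnf43 and 0.23 for Wnt10b. It was -0.60 for Fzd1, -0.54 for Dkk1, -0.28 for Lgr4, -0.18 for Znrf3 and -0.12 for Fzd6. The arrays carry different sex labels and opposite dye orientations, which cannot be told apart, and with 1 array of each the difference was not tested. On replicate 2 only the control-labelled RNA had Y-linked signal, so the ratios of that array also compare RNA without and with it.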

How the results depend on the processing

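The 6 called members passed in 10 of the 12 alternatives with a test, at means within the same sign throughout. These alternatives are not independent. The processed signals and the deposited value table hold nearly the same ratios, and the separate-channel fit with the replicate block repeats the main fit. Under both remaining settings 0 members passed. With median centring in place of loess, 0 were called higher and 0 lower (4 higher and 13 lower at an unadjusted limma p under 0.05), and 1 was at least 2-fold higher on both arrays; over all genes 0 were called. With no normalization, 0 were called higher and 0 lower (0 and 1 at an unadjusted p under 0.05), and 0 were 2-fold higher and 2 lower on both arrays; over all genes 1 was called. An intensity trend in the prior gave 5 higher and 9 lower members, and 612 and 671 genes in place of 195 and 225. Sp5 and Wnt5a passed with plain background subtraction (339 and 388 of all genes), the processed signals, the value table (297 and 338), no filter on dim probes and the robust prior, as well as with the trend. At least 2-fold lower on both arrays were 3 members with the processed signals and 3 with the deposited value table. Read on 1 array alone, that count ranged from 2 without replicate 2 to 4 without replicate 1. The adjusted p of the called members ranged up to 1.00 over the alternatives. With the mean of passing probes, Nkd2 moved to -0.37 and Wnt16 to 0.08, both uncalled. Channels that share an array are paired by it, and fits of separate channels called 2 higher and 4 lower members both with and without the replicate block. With the block the result was fixed in advance, since the channel levels were built from the same ratios, and 195 and 225 of all genes were again called. The cause of these changes was not tested. Red signal was nearer background than green, at 7.18 and 7.58 times it against 15.1 and 15.8.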
